A study of Mus musculus with 72 samples.

Results

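The 60 rows described here were chosen by their excess of ZT12 over ZT0 in white adipose tissue of WT mice. They were taken from a count table of 32377 rows. A row could enter if it had a count in at least 60 of 72 libraries, which 6243 rows did (called eligible rows). For each of these, the median of log2(CPM + 10) over the 4 WT libraries of ZT12 was set against that over the 4 WT libraries of ZT0, where CPM is a count scaled to a common library total. The 60 rows with the largest difference were kept. LRE and KO libraries, and WT libraries of the other 4 times, did not enter the choice, and they carry the results.

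The samples are mouse white adipose tissue, labelled eWAT, from 3 genotypes at 6 zeitgeber times (ZT0, ZT4, ZT8, ZT12, ZT16 and ZT20), with 4 replicates in each of 18 groups. WT is the wild type. KO is labelled as a knockout of Bmal1 in the full body. LRE is not spelled out in the labels, and no promoter or Cre driver is given for it. The sources used here give no strain, sex, age, feeding or light schedule. The title of the series concerns the liver clock and adipose rhythms, so the questions addressed here are whether rows that were high at ZT12 in WT were also high at ZT12 in LRE and in KO, and whether LRE and KO differed. The series' design text describes a cell line in place of tissue, and the sample labels were followed. Nothing in the labels ties each replicate to an animal of its own, and a p-value here measures only the spread between these samples, which may be technical.

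BMAL1 pairs with CLOCK to drive transcription of the Period and Cryptochrome genes, whose products inhibit the pair and so close the loop of the circadian clock. Its targets also include output genes, and in adipose tissue the clock is known to time lipid storage, lipid release and the secretion of adipokines. Without BMAL1 the clock in a cell stops, although signals from feeding and from other organs can still impose daily changes. Zeitgeber time counts the hours from lights on.

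The rows carry no gene identifier, so each is known only by a row number that starts at 1 below the header line, and no gene name, marker or sequence is given. The level of Bmal1 and the identity of the tissue were therefore not checked. The shallowest library held 5293 counts, the median library 86032 and the deepest 508821, and a single count was worth 11.6 CPM in a library of median depth. The members were low: the median over the 60 of the mean count per library was 5.4, against 6.1 over eligible rows. Only 10 members averaged 10 counts or more, and 29 averaged under 5. The most counted were row 4074, with a mean of 127 counts per library, and row 3816, with 93.7.

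There were 7 libraries apart from the others in depth or composition: the 4 of WT ZT16, WT ZT12 replicate 2, WT ZT20 replicate 4 and KO ZT16 replicate 1, which held 5293 counts. Libraries of 1 group also differed along a main axis of variation. A score on it is given below where it runs with a result. The score weights rows by the first principal component of the deviations from group means, computed without the members. Its values keep differences between groups. A fit with the score as a covariate can therefore also take out differences of time or genotype that run along the axis. Well position (the letter and number in the library name) runs with the groups. WT ZT0 and KO ZT0 had the letters A to D and WT ZT12 and KO ZT12 the letters M to P, so that time and letter cannot be told apart in these genotypes. In LRE, ZT0 had wells of number 2 and letters I to L, and ZT12 wells of number 3 and letters A to D. Time and well position cannot be told apart there either.

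In WT, the differences that chose the members had a median of 1.47 and ran from 1.26 to 3.32 on the log2(CPM + 10) scale, against a median of -0.12 over eligible rows, of which 40.3% were above 0. These values are a description. The last row inside the list, row 27518, had a difference of 1.257 and the first outside, row 3916, one of 1.256, so the edge of the list is arbitrary. All 4 libraries of ZT12 lay above all 4 of ZT0 for 28 members, and this held for 1.43% of eligible rows. The largest difference was that of row 7336. It had 0, 15.3, 9.2 and 0 CPM in the 4 WT libraries of ZT0 and 110, 27.0, 149 and 170 CPM in those of ZT12. Row 7370 followed, with 37.9, 19.1, 9.2 and 17.5 CPM at ZT0 and 288, 94.6, 109 and 84.9 CPM at ZT12. Neither row's ranges overlapped. The WT libraries of ZT0 held 114043 to 261328 counts and those of ZT12 held 70689 to 74032. When all 8 were thinned to 70000 counts, the same rule shared 21 of its 60 rows with the list.

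The excess at ZT12 that chose the rows was close to 0 in LRE and small in KO when taken over all members. The median difference between ZT12 and ZT0 over the members was 0.01 in LRE (quartiles -0.60 and 0.70) and 0.18 in KO (quartiles -0.52 and 0.75), against -0.10 and -0.05 over eligible rows. In LRE, 31 members were higher at ZT12 and 29 were lower. The share of 51.7% with a higher value compares with 44.8% of eligible rows. In KO, 33 were higher and 27 lower, a share of 55.0% against 47.4%. Fitted fold changes from edgeR over all 60 members had medians of 0.07 in LRE (34 higher, against 45.1% of eligible rows) and 0.24 in KO (36 higher, against 51.0%). Over the 33 members that passed a filter on counts, described below, the medians were 0.41 and 0.57, with 23 and 24 higher (46.3% and 50.2% of tested rows). As the filter drops the least counted rows, these values are a description. The differences of single members lay to both sides of 0. A difference of at least 1 was seen for 10 members in LRE and 11 in KO (5.22% and 5.97% of eligible rows). A difference of -1 or less was seen for 9 of 60 in LRE and 5 of 60 in KO, near the shares over eligible rows (12.5% and 8.27%).

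Groups without overlap were few. All 4 ZT12 libraries lay above all 4 ZT0 libraries for 2 members in LRE, rows 4074 and 5269 (2.53% of eligible rows). In KO this held for 4 members, rows 3816, 5269, 7336 and 9564 (1.39% of eligible rows).

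**Figure D1:**
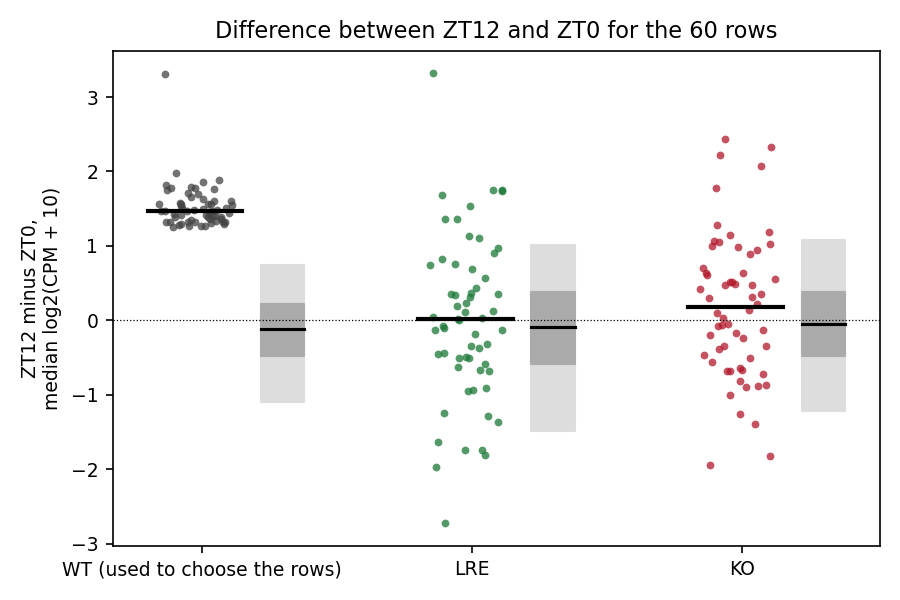
Difference between ZT12 and ZT0 in the median of log2(CPM + 10) over 4 libraries each, for the 60 rows (points) in WT, LRE and KO, with their median as a black bar. Grey boxes give eligible rows (dark, quartiles; light, a wider central range that leaves out 5% at each end; line, median). The WT points lie above 1.26 because they chose the rows, while the LRE and KO points have medians of 0.01 and 0.18 and spread to both sides of 0.

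Tests by edgeR's quasi-likelihood F-test found few members that differed between ZT12 and ZT0. The count filter of the test passed 33 members (55.0%, against 51.7% of eligible rows), and 27 were not tested. In LRE 2 of the 33, row 4074 and row 8699, were higher at ZT12 (adjusted p under 0.05), and 0.403% of the 3724 tested rows were called higher. None was lower, while 2.74% of tested rows were. With no filter 3 members were called higher and 3 lower, and without the 7 libraries 2 were higher and 1, row 3797, was lower (-2.34, adjusted p = 0.0451). At an unadjusted p under 0.05, 13 of the 33 differed in LRE, and so did 22.4% of tested rows. In KO none of the 33 was called in either direction, against 0.0806% of tested rows. There, 12 of the 33 had an unadjusted p under 0.05, against 7.36% of tested rows, and DESeq2 called 1. A second fit took the eligible rows as its filter, so that all 60 members were tested. It called the same 2 rows in LRE (0.128% of eligible rows were called higher) and row 7336 in KO (0.0481%). At an unadjusted p under 0.05, 16 of 60 members differed in LRE (14.4% of eligible rows) and 12 of 60 in KO (6.63%).

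The LRE and KO differences were not found to differ from each other for any member. The test of the difference between genotypes (ZT12 minus ZT0 in LRE minus that in KO) called none of 33 members, against 0.779% of tested rows. At an unadjusted p under 0.05 it found 0 of 33 members, against 16% of tested rows. DESeq2 called 0 and gave 9 of the 33 no adjusted p.

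Over the 6 times, the members' highest group means were spread over several times in LRE and KO. In WT the median level of the members went from 5.05 at ZT0 (log2(CPM + 10), chosen low) over 5.59 at ZT4 and 5.99 at ZT8 to 6.29 at ZT12 (chosen high), with 5.23 at ZT16 and 5.53 at ZT20. In LRE the same median stayed between 5.53 and 5.69 at all 6 times. In KO it was lowest at ZT16, with 5.20, and highest at ZT12, with 5.82. It was 5.51 at ZT0, 5.47 at ZT4, 5.71 at ZT8 and 5.60 at ZT20. The value at ZT16 was 5.62 without replicate 1, the library of 5293 counts. In LRE the highest of the 6 group means fell at ZT8 for 20 members (33.3%, against 19.2% of eligible rows), at ZT16 for 17 (28.3% against 21.5%) and at ZT12 for 9 (15% against 16.9%). In KO it fell at ZT12 for 15 (25% against 13.8%) and at ZT8 for 12 (against 18.9% of eligible rows). Every LRE library had a low axis score at ZT8 (-0.983 to -0.900) and at ZT12 (-1.10 to -0.756) and ranged from -0.0460 to 2.31 at ZT16. Its part in these counts was not tested.

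**Figure D2:**
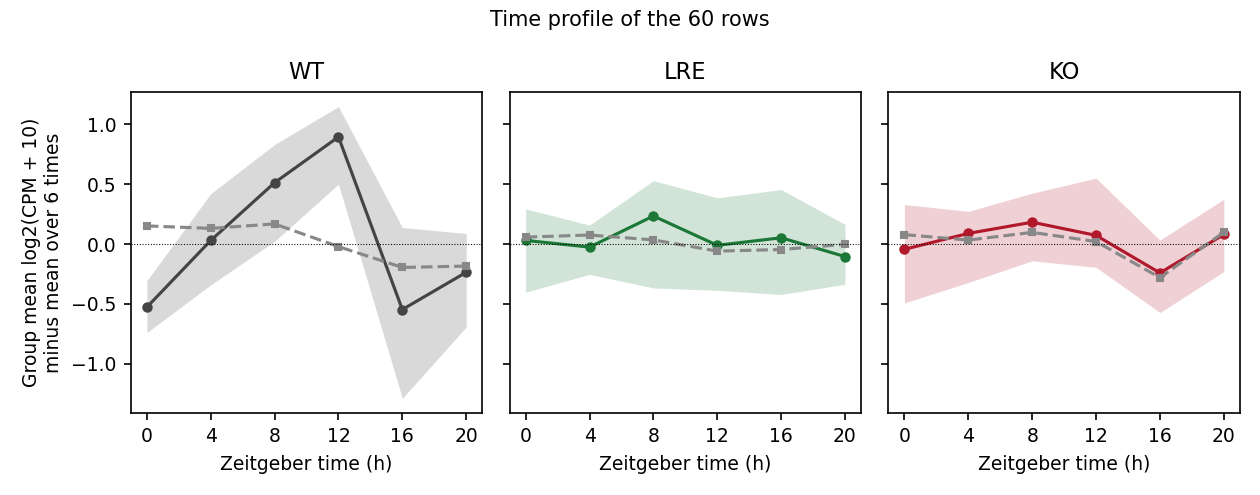
Time profile of the 60 rows: for each row, the group mean of log2(CPM + 10) minus the mean of the 6 group means, shown as the median over rows (line with circles) and quartiles (band), with the median over eligible rows dashed. In WT the median climbs from ZT0 to ZT12, whose 2 values were used in the choice, while in LRE it stays between -0.10 and 0.23 and in KO between -0.24 and 0.18.

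A small group of members was an exception. A difference of at least 1 in both LRE and KO was seen for 7 of the 60 rows (11.7%, against 0.449% of eligible rows): rows 3816, 4074, 5269, 8699, 9563, 9564 and 20293. Of these, rows 3816, 9563, 9564 and 20293 were singled out after their values were seen. Rows 9563 and 9564 are neighbours with equal counts in 37 of 72 libraries, at most 3 counts apart in any. They may count largely the same reads, so the pair may be 1 signal. Most of the 7 rows also went up and down together within groups, as given below. Across the 48 LRE and KO libraries their correlations with the axis score ran from -0.592 to -0.177. The mean score was 0.23 ± 0.99 (SD, n = 4) at ZT0 and -0.99 ± 0.16 at ZT12 in LRE. In KO it was -0.15 ± 0.72 and 0.23 ± 0.98. The part of the axis in this count of 7 rows was not tested. Since these rows were picked for ZT12 over ZT0 in the same libraries, where their highest means lie is a description. In LRE their group means were highest at ZT8 for 4 rows and at ZT12 for 3. In KO 6 of the 7 were highest at ZT12 and 1 at ZT20. In WT, at times not used in the choice, their median deviation from a row's own mean was 0.60 at ZT4, 0.75 at ZT8 and -1.76 at ZT16. Over eligible rows it was 0.13, 0.17 and -0.20. The WT ZT16 libraries are all among the 7 libraries that stood apart. A row's own mean includes ZT16, and also ZT0 and ZT12, which were used in the choice.

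**Figure D3:**
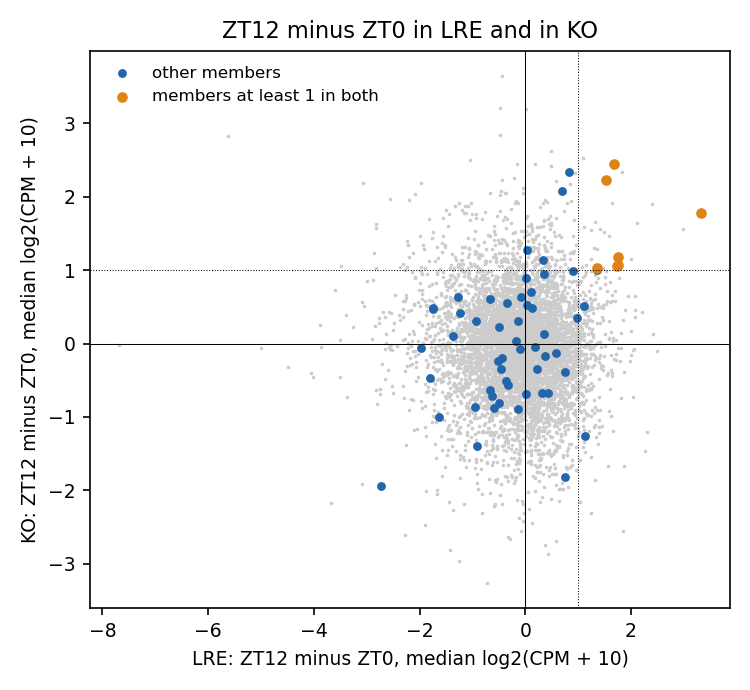
Difference between ZT12 and ZT0 (median log2(CPM + 10)) in LRE on the x axis and in KO on the y axis. Grey points are eligible rows, blue points are members and orange points are the 7 members at or above 1 (dotted lines) in both genotypes. Row 4074 is the orange point farthest to the right, at 3.32 in LRE and 1.78 in KO.

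Row 4074 carried the clearest difference in LRE. Its 4 libraries of ZT0 had 965, 308, 125 and 276 CPM, and those of ZT12 had 4895, 2146, 2381 and 3776 CPM. Every ZT12 library lay above every ZT0 library. The log2 fold change was 2.99 ± 0.83 (SE, adjusted p = 0.0364 by edgeR). It was at the threshold: leaving out 1 library at a time gave folds from 2.72 to 3.75 and adjusted p-values from 0.0404 to 0.142, and the call held only without ZT0 replicate 1 and was lost without any 1 of the other 7. LRE libraries of ZT8 were as high, at 3521, 2506, 2665 and 3092 CPM, while those of ZT16 had 53.6, 520, 51.7 and 423 CPM, all below those of ZT12. In KO the ZT0 libraries had 758, 904, 320 and 89.0 CPM and the ZT12 libraries 991, 3800, 2995 and 780 CPM, and these ranges overlapped. The log2 fold change in KO was 2.07 ± 0.80 (SE) and did not pass the threshold (adjusted p = 0.534 by edgeR). Across the 48 LRE and KO libraries the correlation of row 4074 with the axis score was -0.592. With the score as a covariate the LRE fold change was 1.59 (adjusted p = 0.271 by edgeR), which ended the call.

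The call for row 8699 rested on few counts. In LRE it had 12.7, 15.4, 45.5 and 30.7 CPM at ZT0 and 270, 34.1, 36.8 and 236 CPM at ZT12. Replicates 1 and 4 of ZT12 were high, and the other two overlapped with ZT0. The log2 fold change was 2.31 ± 0.64 (SE, adjusted p = 0.0364 by edgeR), and leaving out single libraries gave adjusted p-values from 0.024 to 0.226. The call was lost without ZT0 replicate 1, 2 or 4 and without ZT12 replicate 1 or 4, where the fold change ranged from 1.64 to 2.43. With the axis score as a covariate it was 1.73 (adjusted p = 0.234). In KO the values were 31.0, 14.8, 0 and 74.2 CPM at ZT0 and 28.3, 114, 105 and 26.9 CPM at ZT12. There the high libraries were replicates 2 and 3, and the log2 fold change of 1.21 ± 0.75 (SE) did not pass (adjusted p = 0.80 by edgeR). The axis scores of KO ZT12 replicates 2 and 3 were -0.687 and -0.527, and those of replicates 1 and 4 were 0.863 and 1.275.

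At ZT12 in LRE, row 3816 was split in the same libraries as row 8699. In LRE it had 356, 293, 22.8 and 245 CPM at ZT0 and 2254, 170, 344 and 2407 CPM at ZT12, again high in replicates 1 and 4. The split was not particular to ZT12. LRE replicates 1 and 4 were also high at ZT8 (1507, 216, 462 and 1913 CPM) and at ZT20 (1296, 156, 216.5 and 1256 CPM). At ZT16 the high ones were replicates 2 and 4 (35.8, 1387, 181 and 910 CPM). In KO it had 310, 326, 427 and 430 CPM at ZT0 and 1444, 2974, 3590 and 444 CPM at ZT12, with all 4 ZT12 libraries above those of ZT0 although replicate 4 only just so. The log2 fold changes of 2.44 ± 0.89 in LRE and 2.53 ± 0.89 in KO (SE) did not pass (adjusted p = 0.101 and 0.468 by edgeR). In WT its ZT12 libraries had 3601, 1391, 3824 and 2334 CPM, all above those of ZT0 at 781 to 1014 CPM. Within groups, 6 of the 7 rows went up and down together across the 48 LRE and KO libraries, with correlations of 0.30 to 0.953 between them, while row 5269 had -0.229 to 0.177 with the others. The median correlation of the 7 rows' deviations from group means was 0.485 over 21 pairs of rows, against 0.062 over the 1770 pairs of members and 0.068 over pairs of eligible rows. These are descriptions of libraries that share depth and composition, and the highest value is that of neighbours 9563 and 9564.

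**Figure D4:**
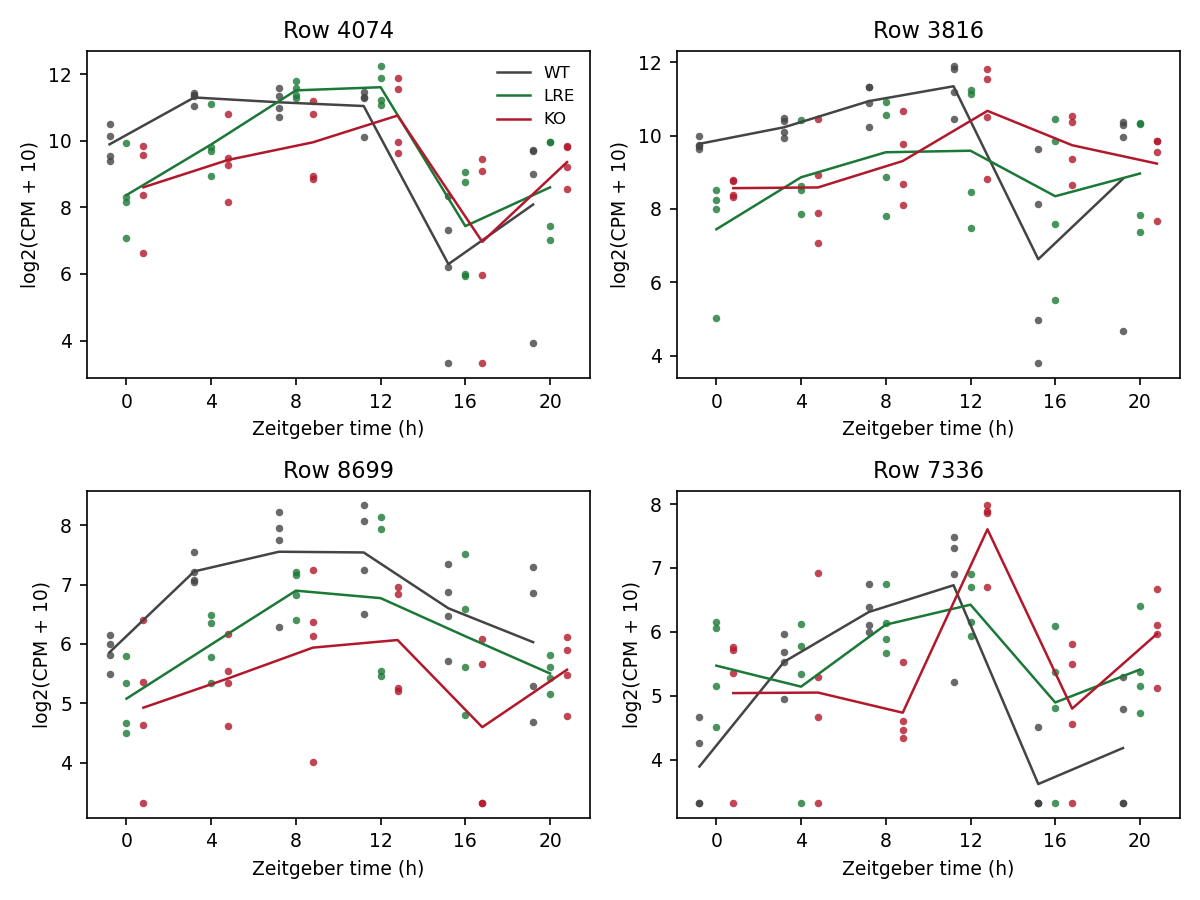
Level of 4 rows by zeitgeber time as log2(CPM + 10), with 1 point for each library and lines through the means of 4 libraries, in WT (grey), LRE (green) and KO (red), shifted sideways for legibility. Row 4074 is at its highest in LRE at ZT8 and ZT12 and low at ZT16, row 3816 splits into high and low libraries in LRE, and row 7336 is highest in KO at ZT12.

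Among the members, row 5269 alone had all ZT12 libraries above all ZT0 libraries in both LRE and KO, which held for 0.0481% of eligible rows. It had 10.2 to 15.4 CPM at ZT0 and 42.2 to 119 CPM at ZT12 in LRE. These were 1, 1, 1 and 2 counts against 5, 7, 5 and 2 counts. In KO it had no count in any ZT0 library and 3, 2, 4 and 1 counts at ZT12, or 13.4 to 84.9 CPM. Set against a floor of 3 counts over the 4 empty libraries, the pooled KO level at ZT12 was 3.09-fold higher. That level rests on 10 counts, whose own spread the value leaves out, so it is not a lower bound. Neither comparison passed the threshold (adjusted p = 0.0691 in LRE and 0.148 in KO by edgeR).

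Row 7336, which led the choice in WT, was also high at ZT12 in KO. Its KO libraries had 31.0, 44.5, 42.7 and 0 CPM at ZT0 and 227, 242, 222 and 94.1 CPM at ZT12, without overlap. Its KO levels at the other 4 times ran from 0 to 111 CPM. The log2 fold change was 2.75 ± 0.75 (SE, adjusted p = 0.148 by edgeR), and in the fit with all 60 members it was 2.77 ± 0.63 (adjusted p = 0.0362). In LRE the row had 12.7, 61.6, 56.9 and 25.5 CPM at ZT0 and 110, 51.1, 61.4 and 94.4 CPM at ZT12, and the groups overlapped. The LRE fold change of 1.04 ± 0.71 (SE) did not pass (adjusted p = 0.393), and the difference between LRE and KO did not pass either (-1.71 ± 1.06, adjusted p = 0.422 by edgeR).

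Row 7370, the second of the choice, did not repeat the WT pattern. It ran from 0 to 46.0 CPM over the 24 LRE libraries and from 0 to 50.6 CPM over the 24 KO libraries, with no group apart from the others. In the fit with all 60 members the difference between ZT12 and ZT0 was -0.81 ± 0.90 in LRE and 0.64 ± 1.11 in KO (SE, adjusted p = 0.743 and 0.970 by edgeR).

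A few members lay the opposite way round, in LRE at a share near that over eligible rows. In LRE all 4 ZT12 libraries were below all 4 ZT0 libraries for 3 of the 60 members, against 4.5% of eligible rows. These were rows 587, 18721 and 28104. In KO no member had all ZT12 libraries below all ZT0 libraries, against 3.16% of eligible rows. Row 18721, counted in all 72 libraries, had 318, 323, 216 and 327 CPM at ZT0 and 160, 119, 196 and 165 CPM at ZT12 in LRE. This difference did not pass the threshold (log2 fold change -0.89 ± 0.36, adjusted p = 0.133 by edgeR). In KO its values of 139, 119, 171 and 312 CPM at ZT0 and 198, 171, 233 and 188 CPM at ZT12 overlapped. Row 3797 had 191, 30.8, 45.5 and 189 CPM at ZT0 and 16.9, 0, 49.1 and 23.6 CPM at ZT12 in LRE (log2 fold change -2.33 ± 0.84, adjusted p = 0.0959 by edgeR).

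Several members reached very high values in single libraries. Row 26325 had 0, 0, 0 and 47.2 CPM in LRE at ZT12, and 375, 1677, 310 and 125 CPM at ZT16, without overlap. In KO its difference between ZT12 and ZT0 did not pass (log2 fold change -1.89 ± 1.09, SE, adjusted p = 0.767 by edgeR) and was -0.96 without ZT0 replicate 2, which had 815 CPM. In WT it reached 1634 CPM in ZT20 replicate 4 and 1076 CPM in ZT16 replicate 1, while no other WT library was above the 365 CPM of ZT12 replicate 2. Row 6014 had 686, 396 and 243 CPM in the same 3 libraries and 1156 CPM in LRE ZT16 replicate 2. WT ZT12 replicate 2, which was used in the choice, was the highest of its group for 6 members (10.0%, against 6.74% of eligible rows) and the lowest for 38 (63.3%, against 57.4%). Across the 48 LRE and KO libraries the correlation with the axis score was 0.693 for row 26325 and 0.485 for row 6014. Over all members it ran from -0.823 to 0.776 with a median of -0.02. It was over 0.4 for 8 members (11.8% of eligible rows) and under -0.4 for 14 (19% of eligible rows). The LRE score itself was low at ZT8 and ZT12 and had its highest mean at ZT16. The highest LRE mean fell at ZT16 for 7 of the 8 and at ZT8 or ZT12 for 13 of the 14. These rows were taken by their correlation with the score in libraries that include these, which largely sets those times. The counts are therefore a description. The part of the axis in these profiles was not tested beyond the fits with its score.

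A 24 h rhythm passed the test for 7 of 33 members in LRE (7.2% of tested rows passed) and for 1 in KO (1.48%). With all 60 members tested there were 4 in LRE (2.42%) and 1 in KO (0.625%). Of the 7, rows 4074, 8699, 9942, 16342 and 20293 had a fitted peak between 7.76 h and 10.9 h after ZT0. Row 26325 peaked at 18.4 h and row 9103 at 17.1 h. The count depended on single libraries and fell to 2 without LRE ZT8 replicate 1, LRE ZT8 replicate 3 or LRE ZT20 replicate 2, to 3 or 4 without any of 8 others, and was 11 without LRE ZT4 replicate 1. Row 4074 had a log2 amplitude of 1.56 (adjusted p = 0.00845 by edgeR) and a peak at 9.23 h, and row 8699 an amplitude of 1.12 (adjusted p = 0.00842) and a peak at 10.9 h. Without LRE ZT12 replicate 1 the rhythm of row 8699 did not pass (adjusted p = 0.054). With the axis score as a covariate 1 member was rhythmic in LRE (2.47% of tested rows) and 5 were in KO (0.725%). Without the 7 libraries that stood apart the LRE count was 11 (12.1%). A fitted peak between ZT8 and ZT16, whether or not the rhythm passed, was found for 25 of 60 members in LRE (41.7%, against 30.0% of eligible rows) and for 33 in KO (55.0%, against 35.1%).

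The rhythmic member in KO did not peak near ZT12. Row 9103 had 176, 310, 239 and 312 CPM in KO at ZT20 and 24.1, 86.7, 71.1 and 18.1 CPM at ZT8, without overlap, and its log2 amplitude was 1.19 with a peak at 18.5 h (adjusted p = 0.0306 by edgeR). The call was lost, with adjusted p-values from 0.0528 to 0.0835, without any 1 of KO ZT4 replicate 2, ZT8 replicate 1 or 4, ZT16 replicate 4 and ZT20 replicate 2, 3 or 4. In LRE the amplitude was 0.94 with a peak at 17.1 h (adjusted p = 0.0446). The second smallest p in KO was that of row 22100, with an amplitude of 0.78 and a peak at 8.51 h, which did not pass (adjusted p = 0.0679 by edgeR) except without KO ZT4 replicate 1 (0.0318) or KO ZT16 replicate 3 (0.0471). Rhythms were not found to differ between LRE and KO for any of the 33 members, against 16% of tested rows. At an unadjusted p under 0.05, 7 of 33 did (32.7% of tested rows), and DESeq2 called 4.

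Levels in LRE and KO were not found to differ either. Averaged over the 6 times, none of 33 members was called, nor was any of the 3724 tested rows (0%). At an unadjusted p under 0.05, 2 members differed (7.6% of tested rows). DESeq2 called none and gave 18 of the 33 no adjusted p. The smallest p belonged to row 8699 among higher values in LRE (0.56 ± 0.29, adjusted p = 0.666 by edgeR) and to row 11088 among lower ones (-0.70 ± 0.32, adjusted p = 0.603). Compared at each time on its own, no member was called at ZT0, ZT4 or ZT16 (0% of tested rows), at ZT12 (0.591%) or at ZT20 (5.85%), and DESeq2 called 0 at these 5 times, although at ZT12 it gave 22 of the 33 no adjusted p. At an unadjusted p under 0.05 there were 2 of 33 at ZT0 (5.61% of tested rows), 0 at ZT4 (3.68%), 4 at ZT12 (18%), 2 at ZT16 (3.28%) and 2 at ZT20 (20.3%). At ZT8 1 member was called lower in LRE, as were 9.29% of tested rows. Row 3797 had 24.1, 10.3, 8.25 and 27.7 CPM in LRE and 108, 57.8, 50.8 and 175 CPM in KO at ZT8, without overlap (log2 fold change -2.66 ± 0.86, adjusted p = 0.0372 by edgeR). In the fit with all 60 members it did not pass although its fold change was as large (-2.67, adjusted p = 0.066), and neither did any other member, against 1.41% of eligible rows called lower. With upper-quartile scaling row 3797 did not pass either (-2.55, adjusted p = 0.0528 by edgeR), and the member then called was row 8996, chosen after its values were seen, with a higher level in LRE (1.36, adjusted p = 0.0384 by edgeR). Over all tested rows that scaling called 87 higher and 305 lower in LRE at ZT8, against 48 and 346 with the main (TMM) scaling. No member was called at ZT8 without any 1 of the 4 LRE libraries or KO replicate 1 or 4, while 2 were without KO replicate 2 and 4 without KO replicate 3. In the fits that lost its call, row 3797 had fold changes of -2.92 to -2.12. The axis score differed between the groups, at -0.983 to -0.900 in LRE and -0.165 to 1.86 in KO, and row 3797 had a correlation of 0.693 with it across the 48 LRE and KO libraries. With the score as a covariate its fold change at ZT8 was -1.38 (adjusted p = 0.804 by edgeR).

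WT itself was sampled at ZT8 and ZT20, 12 h apart and outside the choice. Most members were higher at ZT8: 42 of 60 had a positive log2 fold change, with a median of 0.55, against 52.8% and a median of 0.05 over eligible rows. Few single rows passed. Of the 33 tested, 1 was higher at ZT8 (0.242% of tested rows) and 4 were lower (2.34%). Row 26130 was the higher one, by 2.78 ± 0.65 (SE, adjusted p = 0.00803 by edgeR). The 4 lower rows (587, 3797, 6014 and 26325, of which 587 was singled out with row 26130 after its values were seen) rested on ZT20 replicate 4. Without that library their fold changes were -1.39 to -0.35, and row 26130 kept a fold change of 2.5 (adjusted p = 0.145), so that no member was called in either direction. Without the 7 libraries the median over the 60 members was 0.49.

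Levels against WT were compared over ZT4, ZT8, ZT16 and ZT20, since WT at ZT0 and ZT12 had chosen the rows. The LRE and KO comparisons share these WT libraries. In KO 2 of 33 members were higher (7.09% of tested rows) and 4 were lower (10.9%). In LRE 1 was higher (6.34%) and 2 were lower (10.1%). With all 60 members tested, 6 were higher and 6 lower in KO (5.56% and 6.09% of eligible rows), and 2 were higher and 4 lower in LRE (5.08% and 5.75%). How many of these calls were higher and how many were lower moved with the scaling. With upper-quartile scaling 5 of the 33 were higher and 2 lower in KO, and 1 was higher and 1 lower in LRE. Over all tested rows it called 479 higher and 257 lower in KO, against 264 and 407 with TMM, and 430 and 237 in LRE, against 236 and 377. It moved the median fold change over all tested rows by 0.17 in KO and 0.16 in LRE on the log2 scale. Without LRE ZT4 replicate 2 the LRE count over 33 members was 6, and without LRE ZT16 replicate 2 it was 5.

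Row 9103 was the member most above WT in both comparisons. Over the 24 libraries of each genotype it ran from 0 to 123 CPM in WT (median 20.6), from 18 to 383 CPM in LRE (median 93.1) and from 0 to 313 CPM in KO (median 95.3). The ranges overlapped. The WT values include ZT0 and ZT12, which were used in the choice, so these medians and ranges are a description. The log2 fold change over the 4 times was 1.82 ± 0.38 in LRE (SE, adjusted p = 0.000549 by edgeR) and 1.70 ± 0.40 in KO (adjusted p = 0.00211). Neither call held without the 7 libraries, which leaves ZT4, ZT8 and ZT20 in this comparison, where the fold changes were 1.13 (adjusted p = 0.0964) and 1.03 (adjusted p = 0.166), and the KO call was lost without KO ZT4 replicate 1 (1.21, adjusted p = 0.122 by edgeR). Row 8699 was lower than WT in both. Its medians over the 24 libraries of each genotype were 115 CPM in WT, 45.3 CPM in LRE and 35.7 CPM in KO. They too include WT ZT0 and ZT12 and are a description. The log2 fold changes over the 4 times were -1.07 ± 0.28 in LRE (adjusted p = 0.00633 by edgeR) and -1.70 ± 0.32 in KO (adjusted p = 0.000159). These calls held with RLE and upper-quartile scaling and without the 7 libraries. Thus the row that was called higher at ZT12 in LRE sat at a lower level there than in WT over the 4 times. Row 7370 could be tested only with all 60 members and was lower by 2.01 ± 0.39 on the log2 scale in LRE and 1.37 ± 0.36 in KO (SE, adjusted p = 0.000258 and 0.00814 by edgeR). Row 11088 was higher in KO by 1.30 ± 0.39 (SE, adjusted p = 0.0141) and did not pass in LRE (0.71 ± 0.42, adjusted p = 0.244 by edgeR). Its KO call was lost without the 7 libraries (0.96, adjusted p = 0.168) and with the axis score as a covariate (0.83, adjusted p = 0.0565 by edgeR). Whether the well number, which runs with genotype, entered these values was not tested.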

How the data were processed

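Counts in 72 mouse white adipose libraries (3 genotypes, 6 times, 4 replicates) were analysed. The counts were deposited as a single table of whole numbers, made from sorted and deduplicated alignments per the file headers. STAR 2.5.4b, mm10 and GRCm38 are named in the submitters' processing notes. The sources used here do not state the counter, the annotation or the use of strand. Columns were tied to samples by well position in the labels, and 108 other columns were not used. The rows bear no identifier, so planned checks of markers and of Bmal1 were not made. Rows that hold no gene, if any, stayed in library sizes.

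The members, the tests and the comparisons were chosen with earlier results of these data known. CPM used column sums and a pseudocount of 10 CPM. The counts were tested by edgeR 4.0.16 (quasi-likelihood F-test, R 4.3.3) after filterByExpr on 18 groups with a minimum count of 10 and TMM scaling, fitted to all 72 libraries with 1 mean per group and adjusted by Benjamini-Hochberg over all 3724 tested rows (threshold 0.05). Standard errors were derived from F as the absolute fold change divided by its root. Rhythms were a cosine and sine of 24 h per genotype. The period was assumed. Alternatives were other scalings and filters, DESeq2 1.42.0, limma-voom (limma 3.58.1), a replicate block, the axis score as a covariate, 1 genotype alone, and left-out libraries. The tests were run on simulated counts of rows that passed the filter. These had independent noise for each row and library, without the main axis of variation. They cannot show how the tests behave along that axis or for the members that were not tested.

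Rows described by number were the 2 with the largest difference in the choice, the 2 with the smallest p in each direction for ZT12 against ZT0, the 2 with the smallest p for rhythm, and 1 in each direction for LRE against KO. Others are named as chosen after their values were seen. Rows named for other tests they passed were also chosen in this way.

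Libraries with the same replicate number did not deviate together: over 612 pairs the median correlation was 0.003, and 21 of 72 libraries correlated best with their own number. Of 108 pairs within groups, the lowest chi-square per degree of freedom was 1.29, and none was merged.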

Additional observations from a re-analysis of the deposited data

Results flagged for a closer look

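In groups of 4 libraries, a library was marked where its gap to the nearest of the others was above Dixon's 95% critical value, which chance does in about 1 of 20 groups. Of 36 groups of library measures 4 were marked, where chance gives 1.8. For the 12 named rows only CPM values at ZT0 and ZT12 were screened, and 7 of these 72 groups were marked, where chance gives 3.6. Single high libraries at other times are therefore not marked, such as WT ZT16 replicate 1 for row 6014 (396 CPM) and WT ZT20 replicate 4 for row 26325 (1634 CPM).

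The members took an unusually high share of counts in LRE ZT4 replicate 2 (0.774%) and KO ZT4 replicate 3 (0.742%). Few members had a count in KO ZT16 replicate 1 (16 of 60, in a library of 5293 counts) and in KO ZT20 replicate 1 (50).

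Among single rows, row 7336 was lower in KO ZT12 replicate 4 (94.1 CPM) than in the other three, and row 4074 was lower in WT ZT12 replicate 2 (1094 CPM), one of the 7 libraries that stood apart. Row 7370 was high in WT ZT12 replicate 1 (288 CPM) and row 9103 in WT ZT0 replicate 2 (19.1 CPM). Row 18721 was low in LRE ZT0 replicate 3 (216 CPM) and row 5269 in WT ZT0 replicate 1 (15.2 CPM). Row 26325 had 47.2 CPM in LRE ZT12 replicate 4 and 0 in the other three.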

How the results depend on the processing

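No result of a row named by the rule changed direction under the alternatives run. The list itself kept 33 rows with a pseudocount of 50 CPM, 35 with a minimum of 48 libraries, 21 with thinned libraries (added after seeing the data) and 40 to 45 without 1 library. For ZT12 against ZT0 in LRE, 6 members were called with no filter (3 higher and 3 lower), 5 with DESeq2, 0 with limma-voom, 0 with the axis score, 0 with LRE alone, and 0 with all 60 rows and either the axis score or limma-voom (combinations with all 60 rows were added after seeing the data). For KO the counts were 3 with no filter, 1 with all 60 rows, 1 with DESeq2, 1 with the axis score, 1 with all 60 rows without the 7 libraries and 3 with all 60 rows and the axis score. For LRE against KO at ZT8 they were 2 with RLE scaling, 3 with no filter, 0 with all 60 rows, 4 with DESeq2, 4 without the 7 libraries, 0 with the axis score, 3 with all 60 rows without the 7 libraries and 0 with all 60 rows and the axis score. At ZT12 they were 1 with no filter, 1 with the axis score and 1 with all 60 rows and the score. With no filter 2 were called at ZT16 and 1 at ZT20. For ZT8 against ZT20 in WT they were 9 with no filter, 1 with limma-voom, 0 without the 7 libraries, and 0 with all 60 rows and either of these. For KO against WT they were 12 with all 60 rows, 10 when these were tested without the 7 libraries and 13 with the score. For LRE against WT they were 7 with RLE scaling or DESeq2, 5 with limma-voom, 6 with no filter, all 60 rows, the axis score or without the 7 libraries, and with all 60 rows 8 without the 7 libraries, 10 with the score and 8 with limma-voom. Rhythmic in LRE were 4 with all 60 rows, 3 with limma-voom, 11 without the 7 libraries, 1 with the axis score, 3 with LRE alone, and with all 60 rows 1 with the score and 1 with limma-voom. Rhythmic in KO were 4 with no filter, 2 with DESeq2, 2 without the 7 libraries, 5 with the axis score and 5 with all 60 rows and the score. A difference of rhythm was called for 1 with upper-quartile scaling, 6 with no filter, 4 with DESeq2, 1 with limma-voom, 6 without the 7 libraries, 5 with all 60 rows without these and 1 with all 60 rows and limma-voom. The causes were not tested.

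Leaving out 1 library at a time gave 0 to 2 members for ZT12 against ZT0 in LRE, 0 to 4 for LRE against KO at ZT8, 0 to 6 for ZT8 against ZT20 in WT, 5 to 8 for KO against WT, 2 to 6 for LRE against WT, 2 to 11 rhythmic in LRE, 0 to 2 rhythmic in KO and 0 to 4 for a difference of rhythm. The other counts were 0 in each such fit.

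The labels' replicate numbers do not pair the samples. With the number as a replicate block, 1 member was called for ZT12 against ZT0 in LRE (row 4074, adjusted p = 0.0457, while row 8699 had 0.0526 by edgeR), and the other counts stayed within 1.5 times. Scaling moved the median over all tested rows by more than 0.1 for ZT8 against ZT20 in WT (-0.09 with TMM, -0.21 with RLE) and, with upper-quartile scaling, for LRE against KO at ZT8 (-0.10 to 0.02) and for both genotypes against WT. The members had a median of 5.4 counts per library, and the part of depth in the number of calls was not tested.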

Other observations

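The 60 rows held a larger share of counts at ZT12 than at ZT0 in LRE and KO as well, and most of this came from a pair of rows. In LRE the share was 0.404% ± 0.0911 (SD, n = 4) at ZT0 and 0.859% ± 0.324 at ZT12, and in KO it was 0.462% ± 0.0944 and 0.857% ± 0.356. Rows 3816 and 4074, the 2 most counted, took 0.0648% ± 0.049 at ZT0 and 0.459% ± 0.243 at ZT12 in LRE, and 0.0891% ± 0.0319 and 0.425% ± 0.284 in KO. The other 58 rows took 0.340% ± 0.0424 and 0.399% ± 0.083 in LRE, and 0.372% ± 0.0659 and 0.432% ± 0.0732 in KO, with overlapping ranges in both. In WT, where the choice was made, the other 58 rows took 0.248% ± 0.0326 at ZT0 and 0.783% ± 0.197 at ZT12. The deviations of rows 3816 and 4074 from their group means had a correlation of 0.587 over the 48 LRE and KO libraries, given as a description.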
